A study of Mus musculus with 8 samples.

Results

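The cytosolic ribosomal protein genes encode the protein part of the ribosome that translates nuclear mRNAs. They were taken from the protein-coding genes of the mm9 annotation by symbol: Rpl or Rps followed by a digit, or Rplp0, Rplp1, Rplp2 or Rpsa, without the Rps6k kinases and without symbols that carry -ps. The rule found 85 genes of 22367. Of these, 76 encode core subunits of the ribosome, 45 in the large and 31 in the small subunit, and 9 are relatives named after a subunit (Rpl10l, Rpl22l1, Rpl36al, Rpl39l, Rpl3l, Rpl7l1, Rps19bp1, Rps27l and Rps4y2). The rule used symbols only and no measured value.

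Trimethylation of lysine 4 of histone H3 (H3K4me3) marks the nucleosomes at the transcription start site (TSS) of active and poised genes, and menin, the product of Men1, is a subunit of complexes that write it. Ribosomal proteins are made by nearly every growing cell, and many of their genes carry a tract of pyrimidines at the start of the mRNA (a TOP sequence) through which mTOR controls translation. The mark reports on chromatin at a promoter and not on the amount of mRNA.

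H3K4me3 and input chromatin were sequenced in 4 kinds of cells of the 129S6/SvEvTac background. Wild-type (wt) mouse embryonic stem cells (mESCs) were the TC-1 line and menin-null mESCs the Men1-KO line 3.2N, each kept on feeder fibroblasts with LIF and then freed of feeders. Pancreatic islet-like endocrine cells (PILECs) were differentiated in vitro from each of the 2 lines, which gave wt PILECs and menin-null PILECs. Each genotype was 1 line and each kind of cell gave 1 H3K4me3 library, made with 1 antibody lot, and 1 input library, so no difference between cells has a replicate check and no p-value is given. Intervals are 95% exact intervals of the tag counts. They cover counting error only and compare libraries, not conditions.

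Values given as 4 in a row are those of wt mESCs, mESCs without menin, wt PILECs and PILECs without menin, always in this order. The H3K4me3 libraries held 2432377, 3517028, 18773635 and 17682677 tags, so the mESC values are the less precise ones. Tags that repeat the position and strand of another made up 11.4%, 4.17%, 11.5% and 11.4% of them. The intervals count each such tag as independent. Where these tags are copies of 1 fragment, the intervals are too narrow. The menin-null labels fit the deleted part of Men1 (chr19:6336725-6338961), where the inputs held 17, 0, 22 and 0 tags and where a count of 0 allows up to 3 tags. The H3K4me3 libraries held 0, 0, 24 and 0 tags there. Beyond 5000 bp from annotated starts the wt mESC H3K4me3 library held 0.334 tags per input tag. At that ratio 17 input tags go with 5.68, so its 0 tags go against its wt label, though this part lies inside a gene. Tags on chromosome 8 go with the label. Per Mb and 1000000 tags, the mESC inputs held 502 there in wt and 573 in menin-null cells, and the H3K4me3 libraries 519 and 608. The library is called wt mESCs below as the library labelled so, and each comparison that uses it rests on that label. Of 8 mESC marker promoters, 8 reached 5 RPM (tags per 1000000 tags of the library) in each mESC library and 2 in each PILEC library. The PILEC label had no such support from 14 islet genes, of which 7, 4, 6 and 5 reached 5 RPM. Of 8 fibroblast genes 2, 2, 4 and 3 did so, and of 5 neural genes 4, 5, 5 and 5.

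All 76 core promoters carried H3K4me3 in all 4 kinds of cells, taking at least 5 RPM within 1 kb of the TSS in every library as marked. By this measure 11806 of the 22367 coding genes and 81 of the 85 ribosomal protein genes were marked, the exceptions being Rpl10l, Rpl39l, Rpl3l and Rps4y2. The window has the same length at every gene, so RPM levels were not divided by length. Input and the loss of tags to near-identical copies still differ between genes, as given below. The median core level was 56.1 and 64.8 RPM in wt and menin-null mESCs and 48.3 and 48.2 RPM in wt and menin-null PILECs, against 33.3, 39.2, 34.5 and 31.8 over all marked genes. Every core gene stood in the upper 50 percent of coding genes in all 4 libraries, and 64 stood in the upper 25 percent. The tags behind a core value numbered from 55 to 1518.

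Input at the same promoters was low. Its median over the 85 genes was 2.12, 2.14, 1.05 and 1.16 RPM. Summed over the core genes, H3K4me3 exceeded input 25.0-fold, 30.9-fold, 43.9-fold and 42.0-fold. With the RPM of a gene summed over the 4 libraries of each kind, the median ratio of H3K4me3 to input was 32.1 for core genes and 21.0 for all marked genes. Sums over all marked genes are not given, since a few of these genes had inputs of up to 3543 RPM. As the cultures were measured in bulk, fewer cells with the mark and less mark per cell cannot be told apart.

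Core levels lay close together. Their coefficient of variation across genes was 26.0%, 28.3%, 26.3% and 27.9%. The middle 50 percent of core genes spanned 48.8 to 65.0 and 55.7 to 77.4 RPM in the wt and menin-null mESC libraries and 39.6 to 56.0 and 41.1 to 56.5 RPM in those of PILECs, whereas that of all marked genes spanned 21.4 to 46.9, 24.2 to 57.4, 23.5 to 46.0 and 21.2 to 44.1 RPM. The whole core range was 22.6 to 91.3 RPM in wt and 23.6 to 118 RPM in menin-null mESCs, and 19.9 to 79.3 RPM in wt and 19.2 to 85.8 RPM in menin-null PILECs. Large-subunit genes had medians of 58.0, 66.5, 49.9 and 48.4 RPM and small-subunit genes 53.9, 63.7, 47.4 and 46.8, a gap well inside the spread of either group.

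**Figure D1:**
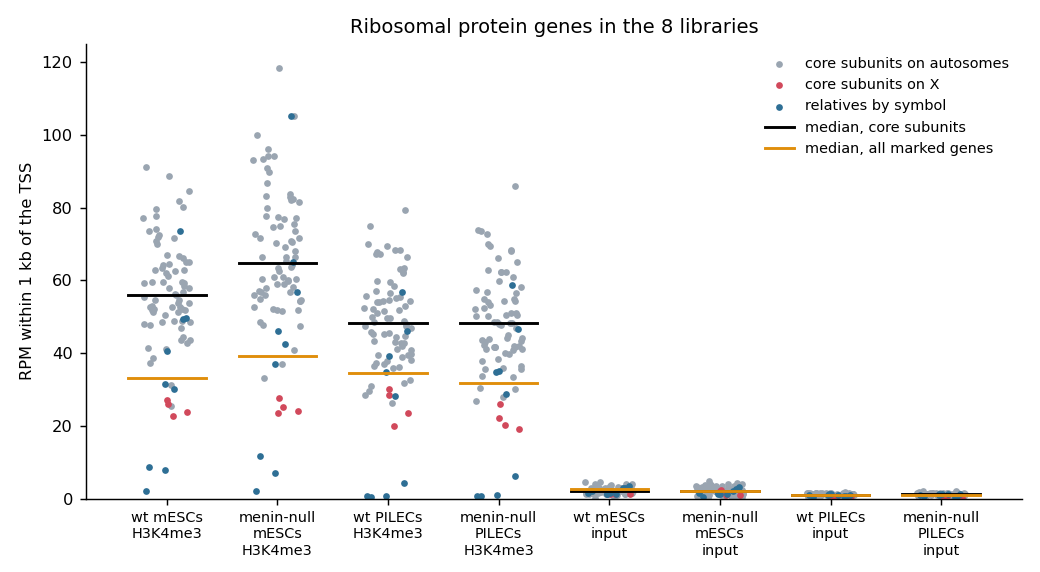
RPM within 1 kb of the TSS of each ribosomal protein gene in the 4 H3K4me3 and the 4 input libraries, with a point for each autosomal core gene, X-linked core gene or relative and lines at the medians of core and of all marked genes. Core genes form 1 band in every H3K4me3 library, with medians of 56.1, 64.8, 48.3 and 48.2 RPM, and the X-linked genes lie at its lower edge.

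Rpl7a, Rps14, Rpl19 and Rpl18 were among the 5 genes with the highest mean level over the libraries. Rpl7a, a large-subunit protein (TSS at chromosome 2, position 26766284 of mm9, plus strand), had 66.2 and 105 RPM in wt and menin-null mESCs and 79.3 and 85.8 RPM in wt and menin-null PILECs. Rps14, a small-subunit protein needed for subunit maturation, had 91.3, 100.1, 70.1 and 73.8 RPM. Rpl19 and Rpl18, both of the large subunit, had 72.4, 89.8, 67.2 and 69.4 RPM and 81.8, 83.0, 63.1 and 68.4 RPM. The start taken for Rpl18 lay 2700 bp from the 5′ end of the annotated gene, with the start of Sphk2 in its window, and at that end the levels were 14.8, 20.8, 19.8 and 21.2 RPM. Rpl7a was the highest core gene in both PILEC libraries and Rps14 in wt mESCs, but the window of Rpl7a also holds the start of Med22, so its level cannot be assigned to Rpl7a alone.

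The proteins of the ribosomal stalk, which recruits translation factors, did not stand at 1 level. Rplp0, the base of the stalk, had 52.6, 54.9, 30.9 and 33.6 RPM, below the lower quartile of the core genes in both PILEC libraries (39.6 and 41.1 RPM). Its partner Rplp1 had 48.9, 58.3, 48.7 and 42.0 RPM, and Rplp2 had 55.9, 65.4, 41.2 and 45.1 RPM. In wt PILECs the 3 genes of this one complex were thus spread over 30.9 to 48.7 RPM. Rpsa, a small-subunit protein also known as the laminin receptor, had 56.7, 75.6, 42.7 and 41.8 RPM.

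Rpl5 and Rpl11, which together bind Mdm2 when ribosome assembly is disturbed, differed from each other in mESCs. Rpl5 had 58.4, 66.5, 52.8 and 56.4 RPM and Rpl11 had 84.7, 81.6, 54.3 and 58.1 RPM, so that they were nearly level in PILECs. Rps6, the substrate of the S6 kinases, had 62.5, 69.1, 55.2 and 50.6 RPM, and Rps19, mutated in Diamond-Blackfan anemia, had 77.3, 93.0, 52.4 and 52.3 RPM. The small-subunit genes of chromosome 12, Rps7 and Rps29, had 52.2, 56.0, 37.2 and 41.2 RPM and 25.5, 37.0, 26.4 and 27.9 RPM, and Rps29 was thus near the lower end of the core. All of these values lay in the upper 50 percent of the coding genes of their library.

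Across the 4 H3K4me3 libraries the core genes varied a little less than other marked genes. The SD of log2 RPM over the libraries had a median of 0.23 for core genes, 0.29 for all marked genes and 0.45 for all coding genes, and 52 of 76 core genes were below the median of marked genes. It was 0.18 for the 76 mitochondrial ribosomal protein genes, so this evenness is not particular to the family. Core genes also hold more tags than most marked genes, which lowers the counting error in their SD. With 1 tag per position and strand the SD of the 85 genes was larger, as given below. That setting can also drop separate tags where they are dense, more so in the deeper PILEC libraries. Rpl23, chosen with its values known as the evenest, had 73.6, 71.7, 75.0 and 73.5 RPM, an SD of 0.03. At the other end Rpl13 had 59.6, 94.1, 37.1 and 41.7 RPM, an SD of 0.60. Over the 76 core genes log2 RPM of the 2 PILEC libraries had a Pearson r of 0.952 and that of the 2 mESC libraries 0.873, and the wt mESC and wt PILEC libraries one of 0.777. Genes are not independent replicates, and the shallower mESC libraries carry more counting error.

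The 4 X-linked core genes had the lowest mean levels of the core. Rpl10, which joins the large subunit late in its maturation, had 27.1, 23.6, 28.5 and 22.2 RPM. Rps4x, a small-subunit protein, had 23.8, 24.2, 23.6 and 19.2 RPM. The large-subunit genes Rpl36a and Rpl39 had 22.6, 25.3, 19.9 and 20.3 RPM and 25.9, 27.6, 30.3 and 26.0 RPM. Of the 72 autosomal core genes, 1, 0, 3 and 0 lay below the highest X-linked one in the 4 libraries.

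The median of the X-linked genes was 0.434, 0.372, 0.530 and 0.439 of the autosomal core median. Input moved with it: within 500 kb of the same genes, the input of the X-linked group was 0.336, 0.358, 0.455 and 0.443 of the autosomal one. Divided by that input, the X-linked to autosomal ratio of H3K4me3 became 1.27, 0.997, 1.18 and 1.02. Over all 340 marked X-linked genes the ratio before this division was 0.463, 0.443, 0.563 and 0.572. The lower level was shared with other marked genes of the chromosome, and divided by local input the X-linked genes were level with the autosomal ones or above them.

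The 9 relatives fell into 2 sets. The products of Rpl36al, Rpl22l1, Rpl7l1 and Rps27l resemble the subunit in their name, Rps19bp1 encodes a protein that binds Rps19, and these 5 were marked in all 4 libraries. Rpl36al had 73.6, 105, 56.9 and 58.8 RPM, above the X-linked Rpl36a in each, but its window also holds the start of Mgat2 and its level may be shared with that gene. Rps27l had 49.7, 56.9, 46.2 and 46.7 RPM and Rpl7l1 had 40.7, 46.1, 39.2 and 35.1 RPM. The lowest of these 5 in every library but menin-null mESCs, Rps19bp1, had 30.0, 42.6, 28.2 and 28.9 RPM, and Rpl22l1 had 31.7, 37.0, 34.9 and 34.7 RPM.

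In the other 4, H3K4me3 was lower in PILECs than in mESCs or low throughout. Rps4y2, a single-exon gene on chromosome 6 (TSS at 148303178 of mm9), had 49.3 and 65.1 RPM in wt and menin-null mESCs but 4.37 and 6.22 RPM in wt and menin-null PILECs. Rpl10l, a single-exon copy of Rpl10 known for its use in the testis, had 8.63 and 11.7 RPM in mESCs and 0.533 and 0.679 RPM in PILECs, from 21, 41, 10 and 12 tags. Rpl39l, the relative of Rpl39 also known from the testis, had 7.81 and 7.11 RPM in mESCs and 0.852 and 0.961 RPM in PILECs, from 19, 25, 16 and 17 tags. Rpl3l, the relative of Rpl3 found in muscle, had 2.06, 1.99, 0.852 and 0.735 RPM, from only 5, 7, 16 and 13 tags.

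The fall of Rps4y2 from wt mESCs to wt PILECs was -3.50 on the log2 scale (95% interval -3.92 to -3.08), and that in the menin-null cells -3.39 (-3.73 to -3.05). In PILECs its H3K4me3 was still 5.54 and 8.05 times its input. Rpl10l was near input there and Rpl39l below it, with inputs of 0.526 and 0.607 RPM for Rpl10l and 1.37 and 1.16 RPM for Rpl39l in wt and menin-null PILECs. Background tags thus set any fold and none is given. In mESCs they were 4.08 and 21.8 times input (Rpl10l, with 9 and 2 input tags) and 5.53 and 4.44 times input (Rpl39l). Rpl3l was close to input in all 4 libraries, at ratios of 1.25, 1.24, 0.853 and 0.784. As a set of promoters marked in all 4 kinds of cells, the symbol rule thus held for the core genes and for 5 of the relatives, but not for these 4. Whether the marked promoters were active was not tested.

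**Figure D2:**
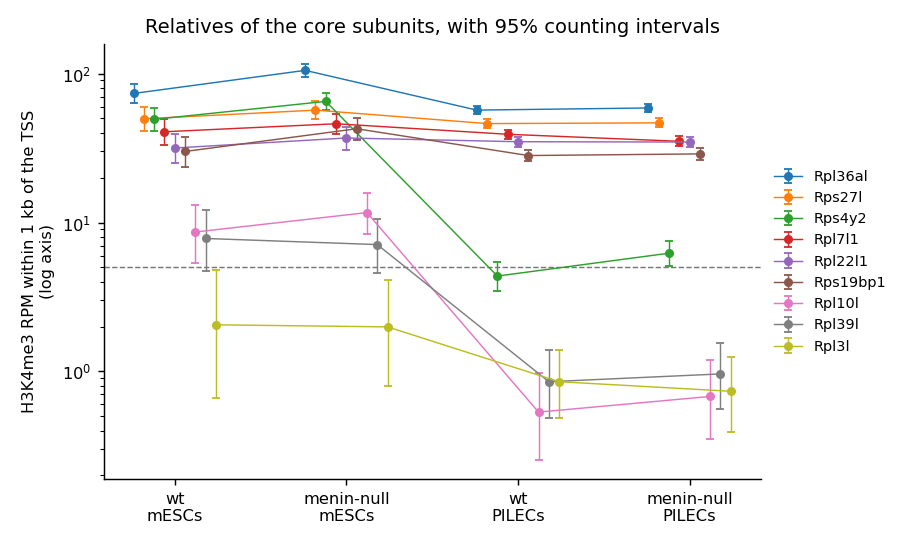
H3K4me3 in RPM within 1 kb of the TSS, on a log axis, for the 9 relatives in the 4 kinds of cells, with 95% counting intervals as bars and a dashed line at 5 RPM. Rps4y2, Rpl10l and Rpl39l drop from mESCs to PILECs, Rps4y2 from 49.3 to 4.37 RPM in wt cells, while Rpl36al, Rps27l, Rpl7l1, Rpl22l1 and Rps19bp1 stay above 5 RPM.

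Processed copies of ribosomal protein genes, which the rule left out by their -ps symbols, had no mark. Of the 55 copies annotated as protein-coding and the 107 annotated as pseudogenes, 0 were marked. Their median levels ran from 0.27 to 0.41 RPM and from 0.28 to 0.45 RPM over the 4 H3K4me3 libraries. They were set beside the genes after the annotation had been read, and tags that match a parent and a copy equally well were not kept, which lowers both.

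The promoters of the family were compared by sequence. RefSeq (GRCm38.p6) gave 75 promoters, 250 bases before to 50 after the start, for 63 of the 85 genes. The stretches from 60 bases before to 20 from the annotated start are shown for 4 core genes with a TOP-like run, for the X-linked gene Rpl10 without one and for 3 relatives with little or no mark, Rpl39l, Rpl10l and Rpl3l. The genes were chosen with their levels known. Capitals mark a TOP-like run, here 5 or more C or T that begin with C within 5 bases of the annotated start on the coding strand, or the SP1 box GGGCGG, read on either strand. They lie at chr2:26910747-26910826 on the plus strand (Rpl7a), chr3:90213629-90213708 on the minus strand (Rps27), chr7:141447591-141447670 on the plus strand (Rplp2), chrX:37085203-37085282 on the minus strand (Rpl39), chrX:74270756-74270835 on the plus strand (Rpl10), chr16:10170168-10170247 on the plus strand (Rpl39l), chr12:66284382-66284461 on the minus strand (Rpl10l) and chr17:24727766-24727845 on the plus strand (Rpl3l).
Rpl7a: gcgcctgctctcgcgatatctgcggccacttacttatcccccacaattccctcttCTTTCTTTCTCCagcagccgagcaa
Rps27: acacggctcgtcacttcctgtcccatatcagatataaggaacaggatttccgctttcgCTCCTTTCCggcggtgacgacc
Rplp2: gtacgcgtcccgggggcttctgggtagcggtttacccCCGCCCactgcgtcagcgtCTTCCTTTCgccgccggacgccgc
Rpl39: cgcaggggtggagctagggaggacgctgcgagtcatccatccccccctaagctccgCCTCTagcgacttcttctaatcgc
Rpl10: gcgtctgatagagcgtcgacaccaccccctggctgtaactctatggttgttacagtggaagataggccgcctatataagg
Rpl39l: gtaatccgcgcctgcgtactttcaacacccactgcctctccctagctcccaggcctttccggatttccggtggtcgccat
Rpl10l: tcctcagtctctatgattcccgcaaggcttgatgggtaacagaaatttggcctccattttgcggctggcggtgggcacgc
Rpl3l: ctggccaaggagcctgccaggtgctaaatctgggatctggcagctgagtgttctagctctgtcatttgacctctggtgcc

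As searched, from 5 bases before the start on, the run was 12 bases long in Rpl7a, 9 in Rps27 and Rplp2 and 5 in Rpl39. In Rpl7a further C and T bases precede the capitals without a break. Its whole tract is thus longer and begins earlier, and such tracts are counted as TOP-like here. A TOP-like run stood in 31 of the 75 promoters (41.3%), against 18.6% of the 18191 promoters of all coding genes in the same table. CCGGAAG, the ETS box, stood in 33.3% against 11.6% and AAGATGG, the YY1 box, in 16.0% against 6.30%. GGGCGG stood in 45 of the 75 promoters against 47.9% and TATAAA in 9.33% against 12.1%. All boxes but the TOP-like run were read on both strands, and a match is a match of letters only. With the gene's 5′ end in mm9 as the start, 17 of 85 genes had a TOP-like run against 18.3% of all, so this value rests on the exact base taken as the start.

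CpG was dense at these promoters, with a median observed to expected ratio of 0.862 against 0.592 over all promoters. The ratio was 1.05 in Rpl7a, 0.836 in Rpl39l, 0.643 in Rpl10l and 0.0892 in Rpl3l, the relative with the least mark in mESCs. The TOP-like run itself did not divide the core genes by level: the median of the mean RPM was 56.3 in the 27 core genes with a run and 55.1 in the 28 with a RefSeq promoter and none.

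Many ribosomal protein genes hold small nucleolar RNAs (snoRNAs), the guides of rRNA modification, in their introns. In the mm9 annotation 30 of the 76 core genes contained at least 1 snoRNA, against 1.20% of all coding genes. The snoRNA hosts had a median mean level of 53.8 RPM and the other core genes 55.9 RPM. The 12 core genes with another coding start within 1 kb had 65.9 RPM and the other 64 had 53.1 RPM. Tags of a shared window cannot be assigned to 1 of the genes, and such windows were found at 13 of the 85 genes and at 2341 of 11725 other marked genes. The 13 were Rpl4, Rpl7a, Rpl9, Rpl12, Rpl15, Rpl18, Rpl35a, Rpl36al, Rps18, Rps25, Rps27, Rps27a and Rps28, and every value of theirs may hold tags of the neighbour as well.

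The mark lay downstream of the TSS. The median share of a core gene's tags within 2 kb that fell downstream was 85.9%, 85.4%, 78.7% and 79.9%, against 71.3%, 74.4%, 70.6% and 72.9% over all marked genes. More than 50% lay downstream in 72, 72, 68 and 68 of the 76 core genes, and in 77.4%, 78.4%, 80.4% and 80.5% of all marked genes. The averaged core profile peaked 375, 225, 375 and 325 bp downstream, at 3.02, 3.82, 2.70 and 2.82 RPM per 50 bp. In all marked genes the peak stood at 175, 175, 225 and 175 bp. The downstream peak exceeded the highest upstream bin 3.02-fold, 2.82-fold, 2.62-fold and 2.87-fold at core genes and 2.39-fold, 2.45-fold, 2.00-fold and 2.12-fold at all marked genes.

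Single genes departed from this shape. Rpl6 of the large subunit had 97.9%, 97.5%, 95.9% and 97.8% of its tags downstream. Rpl28, also of the large subunit, had only 33.6%, 31.6%, 16.0% and 16.6%, and Rps15a of the small subunit 31.7%, 30.8%, 33.2% and 30.0%. These 3 genes were chosen with their values known, from the ends of the range. The starts taken for Rpl28 and Rps15a lay inside the annotated gene, 719 and 509 bp from its 5′ end. Tags between that end and the start taken count as upstream, so their low shares depend on the start.

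**Figure D3:**
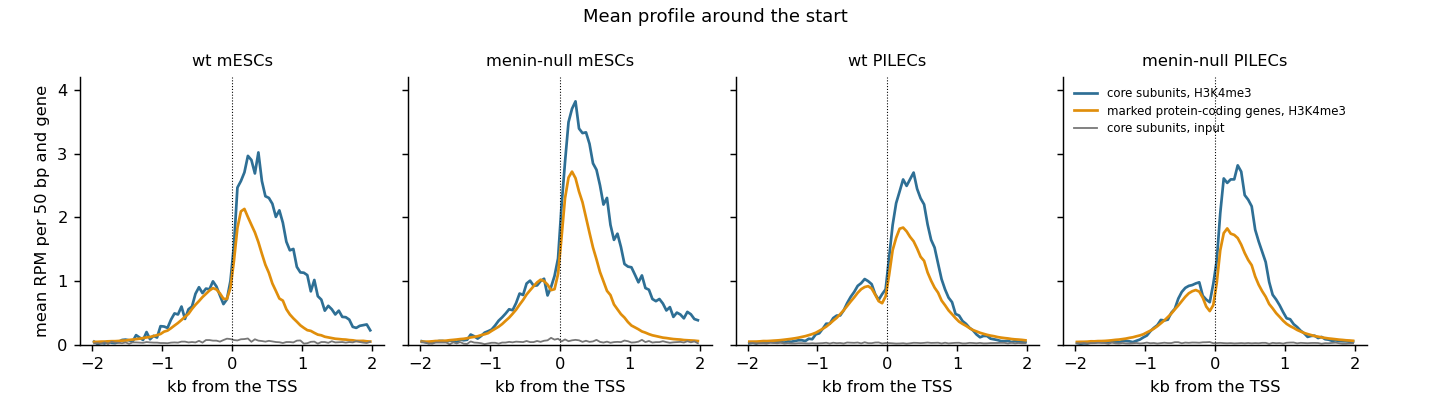
Mean RPM per 50 bp and gene against the distance from the TSS in kb in each kind of cells, with lines for H3K4me3 of the 76 core genes, H3K4me3 of all marked genes and input of the core genes. The core profile peaks downstream, at 3.02, 3.82, 2.70 and 2.82 RPM, and in mESCs it extends further beyond 1 kb than in PILECs.

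Beyond 1 kb downstream, the core genes differed more between mESCs and PILECs than they did within 1 kb of the TSS. This window was chosen after the averaged profiles had been seen, so its values are a description. From 1 to 2 kb downstream of the TSS the mean core level was 11.2 and 13.6 RPM in wt and menin-null mESCs and 2.86 and 3.02 RPM in wt and menin-null PILECs. Input there had means of 0.771, 0.885, 0.527 and 0.524 RPM. All marked genes had means of 2.33, 2.70, 3.32 and 2.95 RPM, so the core genes stood far above them in mESCs and close to them in PILECs. The medians of marked genes were only 0.822, 0.853, 1.23 and 1.07 RPM. Their input medians were 0.706, 0.534, 0.526 and 0.497 RPM, so many marked genes held little mark in this window.

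Any difference in RPM was counted here, without a minimum of tags, and the share of marked genes rests in many genes on few tags. Of the 76 core genes, 74 had a lower RPM in wt PILECs than in wt mESCs in this window, against 33.5% of marked genes, the exceptions being Rpl24 and Rpl28. Rpl28 was near input in both, with 0.411 RPM in wt mESCs and 0.586 in wt PILECs beside inputs of 0.471 and 0.526. In the menin-null cells 75 were lower, against 42.7% of marked genes, with Rpl24 as the exception. Summed over the core genes, the change was -1.96 on the log2 scale (-2.04 to -1.89) in wt and -2.18 (-2.24 to -2.11) in menin-null cells. The same sums over all marked genes gave 0.51 and 0.13. With 1 tag kept per position and strand the core values were -1.92 and -2.14, and with the gene's 5′ end as the TSS -1.63 and -1.79. Counted from that 5′ end, 76 core genes were lower in wt cells and 75 in menin-null cells.

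The 3 highest values of wt mESCs in the window belonged to large-subunit genes. Rpl12, a protein near the base of the stalk, had 35.8, 41.8, 8.31 and 7.69 RPM. Rpl13 had 32.1, 40.4, 4.26 and 6.11 RPM and Rpl3, a protein close to the peptidyl transferase center, 29.6, 33.0, 4.47 and 5.99 RPM. Rpsa of the small subunit had 17.3, 23.3, 2.24 and 3.11 RPM. In each of the 4 genes both mESC libraries were above both PILEC libraries. Rpl24 went the other way, with 6.58, 7.11, 15.8 and 11.5 RPM, but its window was counted from a start 7529 bp from the gene's 5′ end that may belong to a neighbouring or merged locus.

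As a share of all tags within 2 kb, this window held 16.1%, 16.7%, 5.46% and 5.78% of the core tags and 5.90%, 5.69%, 8.08% and 7.68% of those of marked genes. A share does not depend on the depth of a library. The mESC and PILEC libraries also differed in depth and in input, both in this window and within 500 kb of the TSS, where the median change of input at the core genes was -0.41 in both genotypes. Their part in the result was not tested. The wt values rest on the mESC library whose wt label the tags in Men1 go against, and the change in menin-null cells does not use it.

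**Figure D4:**
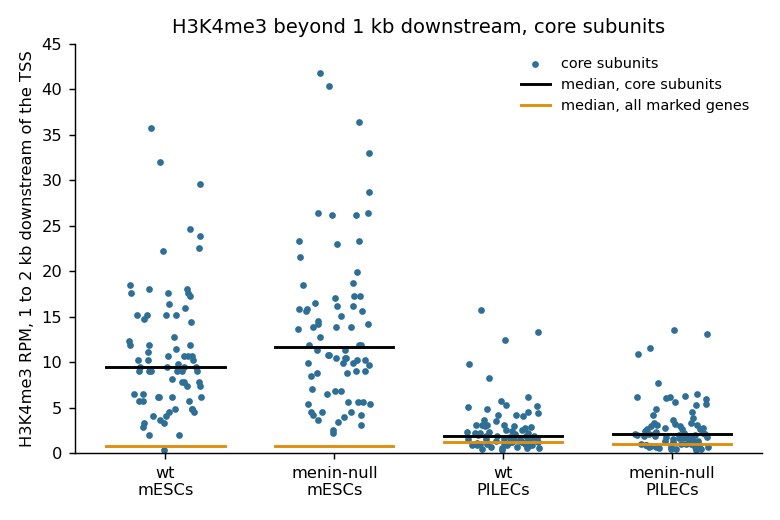
H3K4me3 in RPM from 1 to 2 kb downstream of the TSS for each of the 76 core genes in the 4 kinds of cells, with lines at the median of the core genes and of all marked genes. The core median is 9.46 and 11.7 RPM in the 2 mESC libraries and 1.92 and 2.09 RPM in the 2 PILEC libraries.

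Other genes of translation were read in the same window. The 6 elongation factor genes, lower in 6 of 6 cases in both, changed by -1.59 in wt and -1.70 in menin-null cells on the log2 scale. The 36 genes of ribosome biogenesis changed by -1.66 and -1.98, with 32 of them lower in either genotype. The 76 mitochondrial ribosomal protein genes changed by -0.23 and -0.67, with 40 lower in wt and 51 in menin-null cells. The 55 marked initiation factor genes, without Eif6, which was counted with ribosome biogenesis here, changed by -0.43 and -0.88, with 30 and 44 lower. Set against the 33.5% and 42.7% of marked genes that were lower, all 4 lists held more lower genes than that. Changes were smaller in the mitochondrial and initiation factor lists than in the others. The mitochondrial genes were near input in this window, with medians of 0.822 and 0.719 RPM in wt mESCs and wt PILECs. Their input medians were 0.471 and 0.578 RPM. Their wt change had an interval of -0.42 to -0.03, and of -0.40 to 0.01 with 1 tag per position and strand. Their count of lower genes in wt cells thus shows no clear fall.

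Loss of menin was examined within mESCs and within PILECs, counting a gene as changed at 1.5-fold in RPM with at least 10 tags in the 2 libraries. In mESCs, 6 of the 85 genes were higher in the menin-null library, among them Rpl13, Rpl21, Rpl24, Rpl6 and Rpl7a, and 0 were lower, where 12.2% and 4.9% of all genes tested and 11.2% and 1.38% of marked genes were. The median change of the 85 was 0.22 on the log2 scale, against 0.23 for all coding genes and 0.25 for marked genes. The interval was above 0 for 25 of the 85 and below 0 for 0, against 25.2% and 1.89% of all genes tested. Of marked genes 29.8% and 1.29% had such intervals. This comparison rests on the label of the wt mESC library, which the tags in Men1 go against. The median of the members was thus close to that of all coding genes. Scaling both libraries by their promoter tags moves every value by the same -0.26, so it tests nothing about the members. After it the median was -0.04 and 0 genes were higher, where 3.0% of all genes were higher and 10.1% lower.

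Rpl6, a large-subunit protein, had 31.2 RPM in wt and 51.5 in menin-null mESCs, a log2 change of 0.72 (0.33 to 1.13). For Rpl7a, with 66.2 and 105 RPM, it was 0.67 (0.40 to 0.94). Rpl21, with 46.9 and 70.8 RPM, changed by 0.60 (0.27 to 0.93). Rpl13 of chromosome 8 changed by 0.66 (0.37 to 0.95). Input within 500 kb of it was also higher in the menin-null mESCs, by 0.06. These 4 genes were named because they passed the fold, so their intervals above 0 add no support. The median of marked genes was itself 0.25. After the scaling by promoter tags the difference in each of the 4 was under the fold taken as a change.

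Rpl24, a large-subunit protein, gave the highest ratio, with 53.0 RPM in wt and 93.3 in menin-null mESCs and a log2 change of 0.81 (0.52 to 1.12). The start taken for it lay 7529 bp from the 5′ end of the annotated gene and may belong to a neighbouring or merged locus. At that end the levels were 27.1, 26.4, 34.7 and 33.0 RPM, and the change was -0.04, so the difference was seen at the start taken and not at that end.

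In PILECs, 0 of the 85 genes were higher and 0 lower in the menin-null library, where 9.27% and 8.91% of all genes tested were. Of marked genes only 0.313% and 2.41% were, so the count of 0 does not set the family apart from them. The median log2 change was 0.00, against -0.07 for all coding genes and -0.09 for marked genes, and 43 genes lay above 0 and 42 below. The range went from -0.36 (-0.55 to -0.17) for Rpl10 to 0.51 (0.08 to 0.94) for Rps4y2, whose levels were 4.37 and 6.22 RPM. Over the summed tags the change was -0.01 (-0.02 to 0.01). The interval was above 0 for 8 of the 85 and below 0 for 14, against 5.03% and 21.2% of all genes tested. Of marked genes 5.66% and 31.7% had such intervals. The 4 X-linked core genes had a median of -0.26, with Rps4x at -0.30 (-0.51 to -0.09), and Rps28, a small-subunit protein of chromosome 17, had -0.31 (-0.45 to -0.17).

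**Figure D5:**
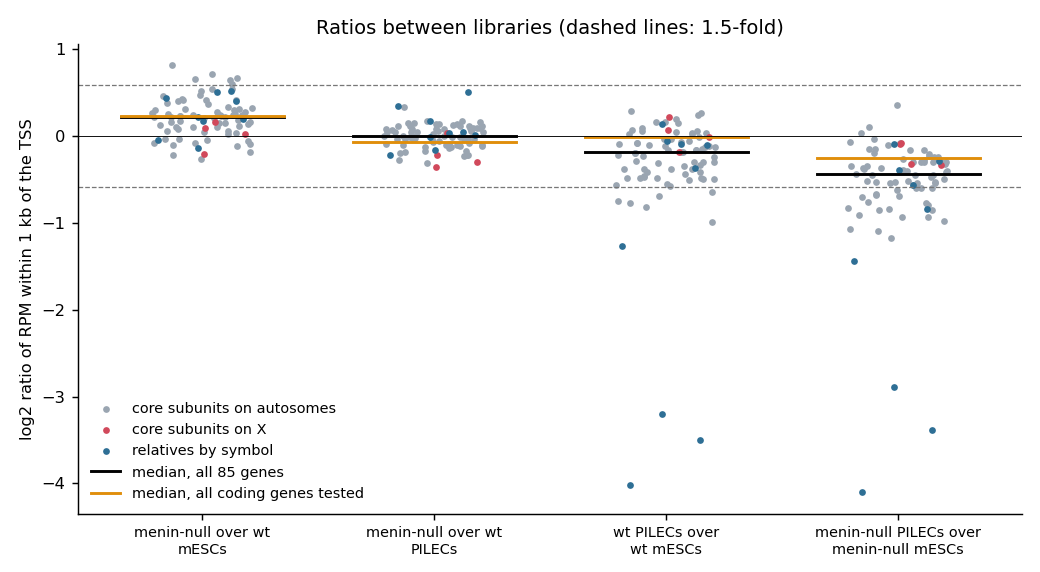
Log2 ratio of H3K4me3 RPM within 1 kb of the TSS for each of the 85 genes in the 4 comparisons, with lines at the median of the 85 and of all coding genes tested and dashed lines at 1.5-fold. The members' medians are 0.22 and 0.00 for menin-null over wt in mESCs and PILECs, and -0.19 and -0.44 for PILECs over mESCs in wt and menin-null cells.

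PILECs were then set against the mESCs of the same genotype. These comparisons share libraries with those above. In wt cells, 10 of the 85 genes were lower in PILECs and 0 were higher, where 25.0% and 19.4% of all genes tested and 12.4% and 16.3% of marked genes were. The lower count was thus close to the share of marked genes. It was below that of all genes, but not under every setting: with 1 tag per position and strand 28 of the 85 were lower, against 26.8%, and within 2 kb 25 were, against 23.4%. Keeping 1 tag per position can also drop separate tags where they are dense, more so in the deeper PILEC libraries. Under it the median of marked genes moved from 0.04 to -0.11 as well. The part of depth in this count was not tested. Besides Rps4y2 and the 3 relatives at input level in PILECs, Rpl10l, Rpl39l and Rpl3l, the lower ones were the large-subunit genes Rpl10a, Rpl11, Rpl13, Rpl17, Rpl22 and Rplp0. The median change of the 85 was -0.19 on the log2 scale, against -0.01 for all coding genes and 0.04 for marked genes. Intervals wholly under 0 numbered 37 among the 85 and those wholly over it 1, against 24.9% and 19.9% of all genes tested. Of marked genes 23.5% and 27.1% had such intervals. Among the 85, 70 genes were below the median of marked genes. Without the 9 relatives, 6 of 76 were lower. The values rest on the label of the wt mESC library.

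Input around these genes moved with the result. Within 500 kb of the TSS its median change was -0.36 for the 85 genes, falling at 72 of them, and -0.26 for all coding genes. Divided by it, a setting chosen after the data had been seen, the median change of H3K4me3 turned to 0.16, against 0.23 for all coding genes and 0.33 for marked genes. Then 3 of the 85 were lower and 10 higher, where 19.2% and 31.7% of all genes were. The members stood below the other genes either way, but the direction of their change depends on this division, and a change of the mark and one of the regional input cannot be told apart.

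Rpl10a, a large-subunit protein, had 65.0 RPM in wt mESCs and 32.7 in wt PILECs, a log2 change of -0.99 (-1.25 to -0.73), and 71.7 and 36.4 in menin-null cells, a change of -0.98 (-1.19 to -0.76). Rpl22 went from 69.9 to 39.6 RPM in wt cells, by -0.82 (-1.06 to -0.57), and Rplp0 from 52.6 to 30.9 RPM, by -0.77 (-1.04 to -0.48). Rpl17 changed by -0.75 (-1.04 to -0.45) and Rpl11 by -0.64 (-0.86 to -0.42). These 5 were named because they were among the genes called. Input within 500 kb was lower in wt PILECs at each of them, with log2 changes of -0.80 at Rpl10a, -0.93 at Rpl22, -0.75 at Rplp0, -0.43 at Rpl17 and -0.61 at Rpl11. Rpl13 changed by -0.69 (-0.95 to -0.42), and input within 500 kb of it by -0.94. The input change was thus close to or larger than that of the mark at all but Rpl17 and Rpl10a. At the upper end, Rpl7a went from 66.2 to 79.3 RPM, by 0.26 (0.02 to 0.50), under the fold taken as a change, while Rps27 at 0.29 (-0.02 to 0.62) and Rps25 at 0.25 (-0.02 to 0.52) had intervals that included 0. Input within 500 kb of Rpl7a changed by -0.68, opposite in sign to its mark.

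In menin-null cells, 27 genes were lower in PILECs and 0 higher, where 34.0% and 17.8% of all genes tested and 30.5% and 8.72% of marked genes were. The lower count lay between these shares, but not under every setting. With 1 tag per position and strand, and within 2 kb, it was above the share of all genes, which was 38.8% and 29.5%. The limit given for 1 tag per position in wt cells holds here too. The counts are given below. They were 22 core genes, 15 of the large and 7 of the small subunit, and Rpl10l, Rpl36al, Rpl39l, Rpl3l and Rps4y2. The median change was -0.44, against -0.25 for all coding genes and -0.27 for marked genes. Scaling by promoter tags moved all values by 0.36, after which the median was -0.08, 8 genes were lower and 1 higher, where 22.0% and 27.7% of all genes were. Input within 500 kb had a median change of -0.37 at the 85 genes and -0.25 at all coding genes. Divided by it, the members' median was -0.09, against 0.01 for all coding genes, with 8 lower and 0 higher, where 25.3% and 24.4% of all genes were. Against the median of all coding genes the members, before this division, stood at -0.18 in wt and -0.19 in menin-null cells.

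Rpl13 had the largest fall of the core genes here, from 94.1 to 41.7 RPM, by -1.17 (-1.36 to -0.98), beside -0.97 in the input within 500 kb. Rpl22 changed by -1.10 (-1.29 to -0.91), beside -0.82 in that input, and Rpl17 by -1.07 (-1.31 to -0.82), beside -0.40. Rps27a, which encodes a small-subunit protein fused to ubiquitin, went from 51.7 to 66.3 RPM, by 0.36 (0.13 to 0.59), beside 0.38 in the input. It was the 1 gene whose interval lay above 0, and that of 68 lay below, against 12.6% and 41.0% of all genes tested. Of marked genes 16.2% and 49.3% had such intervals. Rps23, a small-subunit protein of the decoding center, had 33.3 and 35.6 RPM, with an interval that included 0 (-0.19 to 0.40).

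Other lists of translation genes, each chosen with earlier results of these data known, were read by the same counts within 1 kb. In wt cells the median change from mESCs to PILECs was -0.29 for the 6 elongation factor genes, with 0 past the fold, and -0.18 for the 36 biogenesis genes, with 5 lower. It was -0.09 for the 58 initiation factor genes, with 5 lower and 1 higher, and 0.10 for the 76 mitochondrial ribosomal protein genes, with 0 lower and 2 higher. Of all genes tested 25.0% were lower and 19.4% higher, and of marked genes 12.4% and 16.3%, so that the biogenesis count of lower genes was near the marked share. In menin-null cells the medians were -0.47 for elongation factors, with 2 lower, and -0.44 for biogenesis, with 15 lower. They were -0.47 for initiation factors, with 18 lower, and -0.26 for mitochondrial genes, with 7 lower and 1 higher. There 34.0% of all genes tested were lower and 17.8% higher, and 30.5% and 8.72% of marked genes. For menin-null over wt mESCs, 6 of the mitochondrial genes, 5 of 56 initiation factor genes tested, 3 of the biogenesis genes and 0 of the elongation factor genes were higher and 0 were lower in any of these lists, where 12.2% and 4.9% of all genes tested and 11.2% and 1.38% of marked genes were. In PILECs, the same lists had 0 genes higher with loss of menin and 1 lower, an initiation factor gene, where 9.27% and 8.91% of all genes tested but only 0.313% and 2.41% of marked genes were.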

How the data were processed

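The deposited files hold positions of 36-bp sequence tags from H3K4me3 and input libraries. Per the labels, chromatin was sheared to about 250 bp and tags were placed on mm9. The study's methods kept tags with 1 genomic location and few mismatches, so near-identical copies of these genes can lose tags, and the deposited files still held 1.04% to 1.81% of tags with more than 2 mismatches. The aligner is not given in the sources used here. The columns the authors deposited carry tag positions, strand and mismatches, no other measured value of theirs being used. The mismatches served only for the share just given and for the alternative with at most 2 mismatches. Each tag was moved 125 bp from its 5′ end, and RPM is tags per 1000000 tags of the library within 1 kb of the TSS. The TSS of a gene was its annotated coding start (GENCODE vM1) with the highest H3K4me3 sum, which can only raise a level. A 0 count was taken as 1 tag in ratios. Intervals are exact binomial (Clopper-Pearson) intervals. Members, lists and tests were chosen with earlier results of these data known. The genes named with values were the 9 relatives, the 5 highest and 5 lowest in mean RPM, the 3 largest ratios each way in each comparison, those past 1.5-fold in a menin comparison, the stalk proteins, Rpsa, Rpl5, Rpl11, Rps6, Rps14, Rps19, members on chromosomes X, 8 and 12 and those with under 10 tags, and a few genes that these rules take are not reported here; others are said to be chosen with values known. Sequences came from RefSeq GRCm38.p6. Scripts ran under Python 3.11.15 with scipy 1.17.1, pandas 2.3.3, matplotlib 3.10.9 and numpy 2.4.6 and were tested on simulated data. Alternatives were duplicates, fragment shift, scaling, window, TSS, input subtraction, regional input (added after the data were seen), mismatches, depth, folds and core genes alone.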

Additional observations from a re-analysis of the deposited data

How the results depend on the processing

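No paired analysis was possible because each kind of cells had 1 library, and for the same reason no replicate could be left out. Of 1536 values of 39 named genes under an alternative, 1410 lay within the counting interval of the value reported, and 3 that were past the fold as reported had the other sign, none of them past the fold then: with the gene's 5′ end as TSS, Rpl24 changed by -0.037 for menin-null over wt mESCs and by 0.32 for menin-null PILECs over menin-null mESCs, and within 500 bp Rpl3l changed by 0.22 for wt PILECs over wt mESCs. The cause was not tested.

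The median level of the 85 genes (mean of the 4 libraries) was 48.3 RPM with 1 tag per position and strand, 117 scaled by promoter tags, 34.7 within 500 bp, 62.4 within 2 kb, 50.9 at the gene's 5′ end, 52.5 with input subtracted and 55.2 for core genes alone. Its ratio over input was 28.8, 69.4, 35.6, 21.8 and 30.9 under the first 5 of these. The spread over the libraries was 0.34, 0.16, 0.24, 0.30, 0.22, 0.22 and 0.23 under all 7, 0.24 with at most 2 mismatches and 0.25 thinned to the smallest library. The downstream share was 80.3% with 1 tag per position, 81.9% with the 5′ end of each tag or at most 2 mismatches, 86.6% at the gene's 5′ end and 82.7% for core genes.

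For menin-null over wt mESCs the median was -0.040 scaled by promoter tags and 0.29 within 500 bp, and the genes higher numbered 3 with 1 tag per position, 0 scaled, 12 within 500 bp, 3 within 2 kb and 0 at 2-fold, where 1442 of 14387 genes, 3.0%, 17.2%, 11.4% and 1.54% of all genes were. In PILECs it was -0.020 with 1 tag per position, 0.088 scaled and 0.023 within 500 bp, with 1 gene higher when scaled, with input subtracted or thinned (11.3%, 2.55% and 2.87% of all genes).

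For wt PILECs over wt mESCs the median was -0.42 with 1 tag per position, -0.092 within 500 bp, -0.39 within 2 kb and -0.13 at the gene's 5′ end. The genes lower numbered 28, 5 and 25 under the first 3, 17 thinned, 4 at 2-fold and 6 for core genes, against 26.8%, 28.0%, 23.4%, 22.6%, 16.0% and 25.0% of all genes, and 1 was higher within 500 bp (15.4%). For the menin-null cells it was -0.65 with 1 tag per position, -0.079 scaled, -0.35 within 500 bp, -0.59 within 2 kb, -0.39 at the gene's 5′ end, -0.42 with input subtracted, -0.41 with at least 50 tags and -0.41 for core genes. The genes lower numbered 48 with 1 tag per position, 8 scaled, 43 within 2 kb and 7 at 2-fold, against 38.8%, 22.0%, 29.5% and 20.7% of all genes, and 1 was higher when scaled or at the gene's 5′ end (27.7% and 18.6%). Divided by input within 500 kb, an alternative chosen after seeing the data, the medians were 0.16 in wt cells, with 3 lower and 10 higher, and -0.093 in menin-null cells, with 8 lower. From 1 to 2 kb downstream, an alternative chosen after seeing the data, the core genes changed by -1.63 and -1.79 with the gene's 5′ end as TSS.

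The counts of genes changed within 1 kb thus depend on the window, the scaling, the regional input and the removal of duplicate positions, and the lower depth of the mESC libraries limits the precision of single genes there.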
